A study of Mus musculus with 2 samples.

Results

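The 99 genes described here are the rows of both count matrices whose symbols begin with Nduf, Uqcr, Cox4, Cox5, Cox6, Cox7, Cox8 or Atp5, together with Sdha, Sdhb, Sdhc, Sdhd and Cycs. They are 99 of the 28695 genes listed in either library and of the 23197 listed in both. By symbol, 36 encode subunits of complex I, 4 of complex II, 8 of complex III, 18 of complex IV (counting Ndufa4 and its relative Ndufa4l2) and 15 of complex V, and Cycs encodes cytochrome c. The symbol rule also takes in 8 complex I assembly factors of the Ndufaf series, the coupling factor gene Atp5s and 8 pseudogenes, which are not subunits of a complex. In the kept cells the members summed to 1.74% of UMIs (unique molecular identifiers, counted RNA molecules) in the library labelled Elf-1 KO and 2.46% in the library labelled WT.

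Cells were isolated from the proximal colon, distal colon and rectum of C57BL/6 mice aged 8 to 10 weeks. All mice were treated with DSS (dextran sulfate sodium), which damages the epithelium of the colon. The library labelled Elf-1 KO pooled 3 mice lacking Elf-1 (Elf-1-/-), a transcription factor of the ETS family, and the library labelled WT pooled 3 wild-type mice. The sources used here give neither the dose and duration of DSS, nor the severity of disease, nor the deleted part of the Elf1 gene, and untreated colon was not analysed here. With 1 pooled library a group there is no replicate error and no test: every interval below is a 95% counting interval, and a difference between the libraries cannot be told apart from a difference between 2 pools of mice or 2 preparations.

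Elf1 itself had 6743 UMIs (181 CPM, UMIs scaled to the total of the library or class) in the library labelled Elf-1 KO and 5713 UMIs (192 CPM) in the library labelled WT, counted over the whole gene, so its RNA does not check the labels. The library labelled Elf-1 KO held 39750319 UMIs in 10012 barcodes, of which 9474 were kept as cells, and the library labelled WT 32481613 UMIs in 8635 barcodes, of which 7718 were kept. The libraries share 57 barcode sequences. Cells fell into 29 clusters, and 13 cell classes were named where a cluster held 3 or more of the class markers in its top 50 genes. Epithelial cells, the cells that define colonic mucosa, were 84 of the kept cells in the library labelled Elf-1 KO and 1057 in the library labelled WT. For 15 epithelial genes, UMIs per cell in fibroblasts averaged 0.0329 in the library labelled Elf-1 KO and 1.32 in the library labelled WT. The library labelled WT was also the higher in B cells (0.0178 in Elf-1 KO against 0.820), macrophages and monocytes (0.0111 against 1.47) and plasma cells (0.0435 against 2.88). In endothelial cells the 2 were closer (1.56 against 2.22). The part of such RNA in the members' values was not tested.

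Oxidative phosphorylation is carried out in the inner mitochondrial membrane. Complexes I and II take electrons from NADH and succinate, complex III passes them through cytochrome c to complex IV, which reduces oxygen, and complex V (ATP synthase) uses the resulting proton gradient to make ATP. Most subunits are encoded in the nucleus and a small core in mitochondrial DNA. Several subunits exist as a widely used form and a relative restricted to particular tissues or to low oxygen, such as Cox4i1 and Cox4i2. In the colon, absorptive epithelial cells are known for strong dependence on mitochondrial oxidation of butyrate.

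Within each library the summed member level followed cell class. It was highest in epithelial cells of the library labelled WT, at 46918 CPM, and epithelial cells of the library labelled Elf-1 KO had 25275 CPM. Smooth muscle cells and pericytes held 25636 CPM in the library labelled Elf-1 KO and 34560 CPM in the library labelled WT, the highest class in the first library and the second highest in the other. Plasma cells lay near the bottom, with 6963 CPM in the library labelled Elf-1 KO and 6756 CPM in the library labelled WT, beside neutrophils with 7745 CPM in the library labelled Elf-1 KO and 6692 CPM in the library labelled WT. Fibroblasts, B cells, macrophages and dendritic cells lay between 17964 and 20282 CPM in the library labelled Elf-1 KO and between 19533 and 24481 CPM in the library labelled WT. Within the B cell class, cluster 20 (45 cells labelled Elf-1 KO, 297 labelled WT) reached 29487 CPM in the library labelled Elf-1 KO and 28452 CPM in the library labelled WT. Its leading genes include Mzb1, Pclaf, Mki67 and Ccnb2. It held 6 germinal centre markers in its top 50 genes but 1 in its top 10. In its top 50 genes, 5 B cell and 4 plasma cell markers stood, so its kind is not settled. Clusters 9 and 26, each with 1 naive and follicular B cell marker in its top 10 genes, held 15437 and 17705 CPM in the library labelled Elf-1 KO. In the library labelled WT they held 15617 and 15603 CPM. A T cell cluster that also had the cell cycle genes Ccnb2 and Pclaf among its leading genes (48 cells labelled Elf-1 KO, 19 labelled WT) was high too. It held 32750 CPM in the library labelled Elf-1 KO and 30942 CPM in the library labelled WT.

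**Figure D1:**
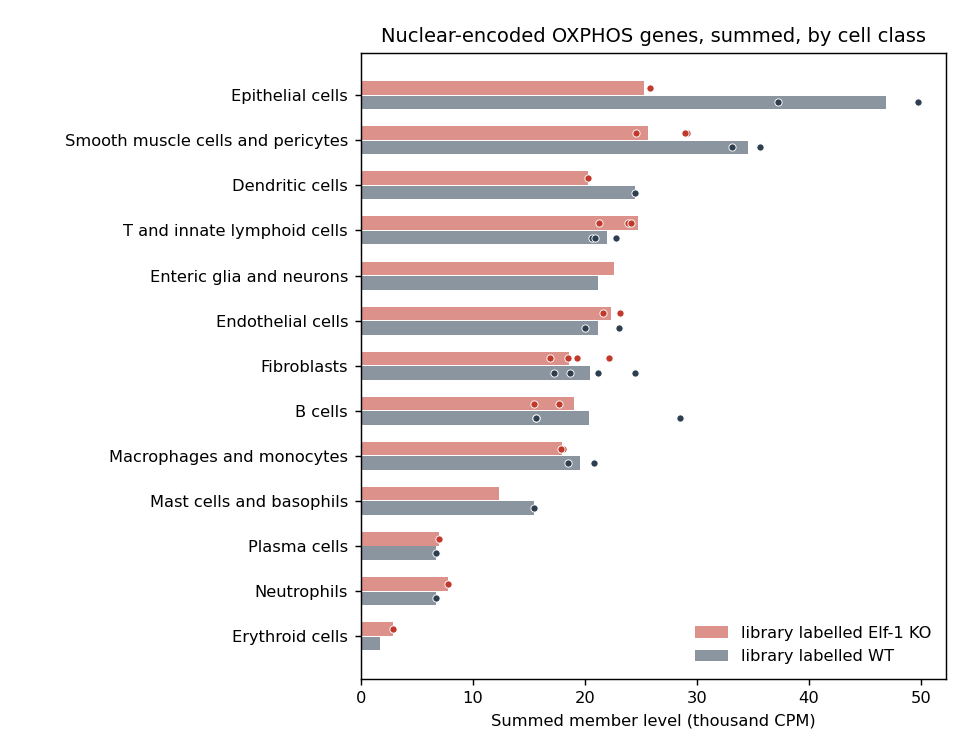
Summed level of the 99 members (CPM in units of 1000, horizontal axis) in the 13 named cell classes. Bars are the summed cells of a class, red for the library labelled Elf-1 KO (upper bar) and grey for the library labelled WT (lower bar), and points are clusters with at least 50 cells in that library; the epithelial bars stand at 25275 CPM (Elf-1 KO) and 46918 CPM (WT).

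Single members mostly followed this shared order. For the 82 members with at least 500 UMIs in each library, the rank correlation of a member's level with the sum of the other members over the 10 compared classes had a median of 0.770 in the library labelled Elf-1 KO and 0.824 in the library labelled WT; the points share a library, and no test was made. The lowest level was in plasma cells or neutrophils for 81 of the 82 members in each library. The lowest correlation in the library labelled Elf-1 KO was that of Ndufaf7, an assembly factor, at 0.21, against 0.39 in the library labelled WT. The lowest in the library labelled WT was that of Cox6b2, a form of a complex IV subunit best known from testis, at 0.48 in the library labelled Elf-1 KO and 0.042 in WT. Next lowest were the complex I subunit genes Ndufa1 (0.35 in Elf-1 KO, 0.50 in WT) and Ndufa3 (0.39 in Elf-1 KO, 0.87 in WT) in the library labelled Elf-1 KO, and Cox7a2l (0.53 in Elf-1 KO, 0.35 in WT) in the library labelled WT. Ndufaf7 was highest in neutrophils, where the sum is low, at 53.4 CPM in the library labelled Elf-1 KO and 46.2 CPM in the library labelled WT. It was lowest in plasma cells, at 1.87 CPM in the library labelled Elf-1 KO and 3.95 CPM in the library labelled WT. Ndufa1, an accessory subunit of complex I, was highest in plasma cells of the library labelled Elf-1 KO, at 547 CPM, against 315 CPM in plasma cells labelled WT.

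Between the libraries the members differed by class. Smooth muscle cells and pericytes had a summed level of 0.742 times that of WT (0.733 to 0.751), and 80 of 86 measured members lay below the WT level. The class is made up differently: 77.9% of its cells labelled Elf-1 KO fell in cluster 12, led by Dcn, Serping1 and Rarres2, while 73.1% of those labelled WT fell in cluster 15, led by Acta2 and Tagln. Cluster 12 is mixed in its markers, with 2 mural and 2 fibroblast markers among its top 10 genes and 4 mural and 3 fibroblast markers among its top 50. Its Dcn level in the library labelled Elf-1 KO was 28316 CPM, beside 20703 CPM in fibroblast cluster 10 of the same library, and its Notch3 level was 1.85 CPM. Within clusters the direction was the same, with 28943 CPM in cluster 15 of the library labelled Elf-1 KO against 35642 CPM in WT, 24585 CPM (Elf-1 KO) against 29470 CPM (WT) in cluster 12, which holds 43 WT cells, and 29092 CPM (Elf-1 KO) against 33109 CPM (WT) in cluster 1, led by Rgs5 and Tagln. The within-cluster ratios were 0.812, 0.834 and 0.879, closer to 1 than the ratio of the whole class. Values of the whole class given below thus set mostly different clusters against each other, cluster 12 (Elf-1 KO) against cluster 15 (WT).

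Epithelial cells showed a larger difference that rests on different cells. Their summed level was 0.539 times that of WT (0.530 to 0.548), and 84.5% of epithelial cells labelled Elf-1 KO belonged to an enteroendocrine cluster (cluster 22, led by Chgb, Pyy and Chga), while 83.9% of those labelled WT belonged to cluster 27, led by Krt8, Lypd8 and Lgals4. Within the enteroendocrine cluster, the sum was 25843 CPM in 71 cells labelled Elf-1 KO against 34996 CPM in 30 cells labelled WT, a ratio of 0.738 (0.719 to 0.759). Cluster 27 held 13 cells labelled Elf-1 KO against 887 labelled WT, and the goblet cell cluster held no cell labelled Elf-1 KO, so the cells of these clusters were not compared. The median share of mitochondrially encoded UMIs was 3.15% in epithelial cells labelled Elf-1 KO and 6.90% in those labelled WT.

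Dendritic cells, a single cluster at the resolution used, had 20282 CPM in the library labelled Elf-1 KO and 24481 CPM in WT. The ratio was 0.828 (0.806 to 0.852), with 14 of 73 measured members above the WT level in these cells. Their median depth was 2320 UMIs in cells labelled Elf-1 KO and 3277 UMIs in those labelled WT. With cells thinned to 1000 UMIs each and shallower cells left out, the log2 ratio was -0.22, beside -0.27 without thinning. At Leiden resolution 2.0 a cluster led by Fscn1, Ccr7 and Ccl22 held 136 dendritic cells labelled Elf-1 KO and 32 labelled WT. Another, led by H2-Aa, H2-Eb1 and Cd74, held 58 labelled Elf-1 KO and 103 labelled WT. The part of this make-up in the ratio of dendritic cells was not tested. Macrophages and monocytes had a ratio of 0.920 (0.908 to 0.932). Neutrophils lay on the other side, with a ratio of 1.16 (1.10 to 1.22) and 55 of 70 measured members above the WT level, at median depths of 1943 UMIs in cells labelled Elf-1 KO and 1333 UMIs in 167 WT cells. Their make-up differed too. At Leiden resolution 2.0 a cluster with Ngp and Mmp8 among its leading genes held 734 neutrophils labelled Elf-1 KO and 17 labelled WT. Another, with Cd14 and Acod1, held 525 labelled Elf-1 KO and 150 labelled WT. The part of this make-up in the ratio was not tested.

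The remaining classes differed less, or their direction depended on the scaling. T and innate lymphoid cells had a ratio of 1.13 (1.11 to 1.14), but the mean of each cell's own member share gave a log2 ratio of 0.02. Fibroblasts had a ratio of 0.911 (0.905 to 0.917), which turns to a log2 ratio of 0.19 under TMM scaling, a factor computed from the bulk of genes; the median of all genes in fibroblasts was -0.33 on the log2 scale, and in smooth muscle cells and pericytes -0.16. Fibroblast clusters also separate by library, with 17 cells of cluster 5 labelled Elf-1 KO against 887 labelled WT, and the clusters with at least 50 cells in each library had ratios of 1.03, 0.983 and 0.905. B cells (0.935), plasma cells (1.03) and endothelial cells (1.05) had ratios near 1, and the direction in plasma cells was the opposite under 3 of the alternatives tried. B cells too fell in different clusters, with 85.1% of those labelled Elf-1 KO in cluster 9 and 68.3% of those labelled WT in cluster 26. The ratio was 0.988 (0.963 to 1.01) in cluster 9 and 1.13 (1.10 to 1.17) in cluster 26, so the direction of the class is not that of both clusters.

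A gene was counted as past 2-fold when its CPM in the library labelled Elf-1 KO was at least 2 times, or at most 0.5 times, that in the library labelled WT, with at least 50 UMIs in the class over both libraries. In smooth muscle cells and pericytes, 7 of 86 measured members were at least 2-fold lower, against 11% of all genes measured there, and 1 was at least 2-fold higher, against 6.45%. In fibroblasts 2 of 90 were lower (13.1% of all genes) and 1 was higher (3.38%). In epithelial cells 30 of 87 were lower (23.1%) and 1 was higher (17.6%). In dendritic cells 3 of 73 were lower (8.19%) and 0 higher (12.5%). In smooth muscle cells and pericytes the members' share past the lower limit (8.14%) lay near that of all genes (11%). In dendritic cells it was smaller than that of all genes, at 4.11% against 8.19%. None of these shares was tested.

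In neutrophils 6 of 70 members were higher (11.1% of all genes) and 1 lower (9.68%), with 20 or fewer WT UMIs behind each of the 7. In endothelial cells 1 of 80 was higher (3.79%) and 1 lower (6.57%). In B cells 0 of 84 were higher (3.95%) and 1 lower (6.25%), and in macrophages and monocytes 0 of 83 were higher (4.55%) and 1 lower (6.44%). In T and innate lymphoid cells 0 of 81 were higher (5.41%) and 0 lower (3.52%), and in plasma cells 0 of 80 were higher (5.91%) and 0 lower (4.91%). In each class, epithelial cells included, most measured members thus lay within 2-fold of the WT level.

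**Figure D2:**
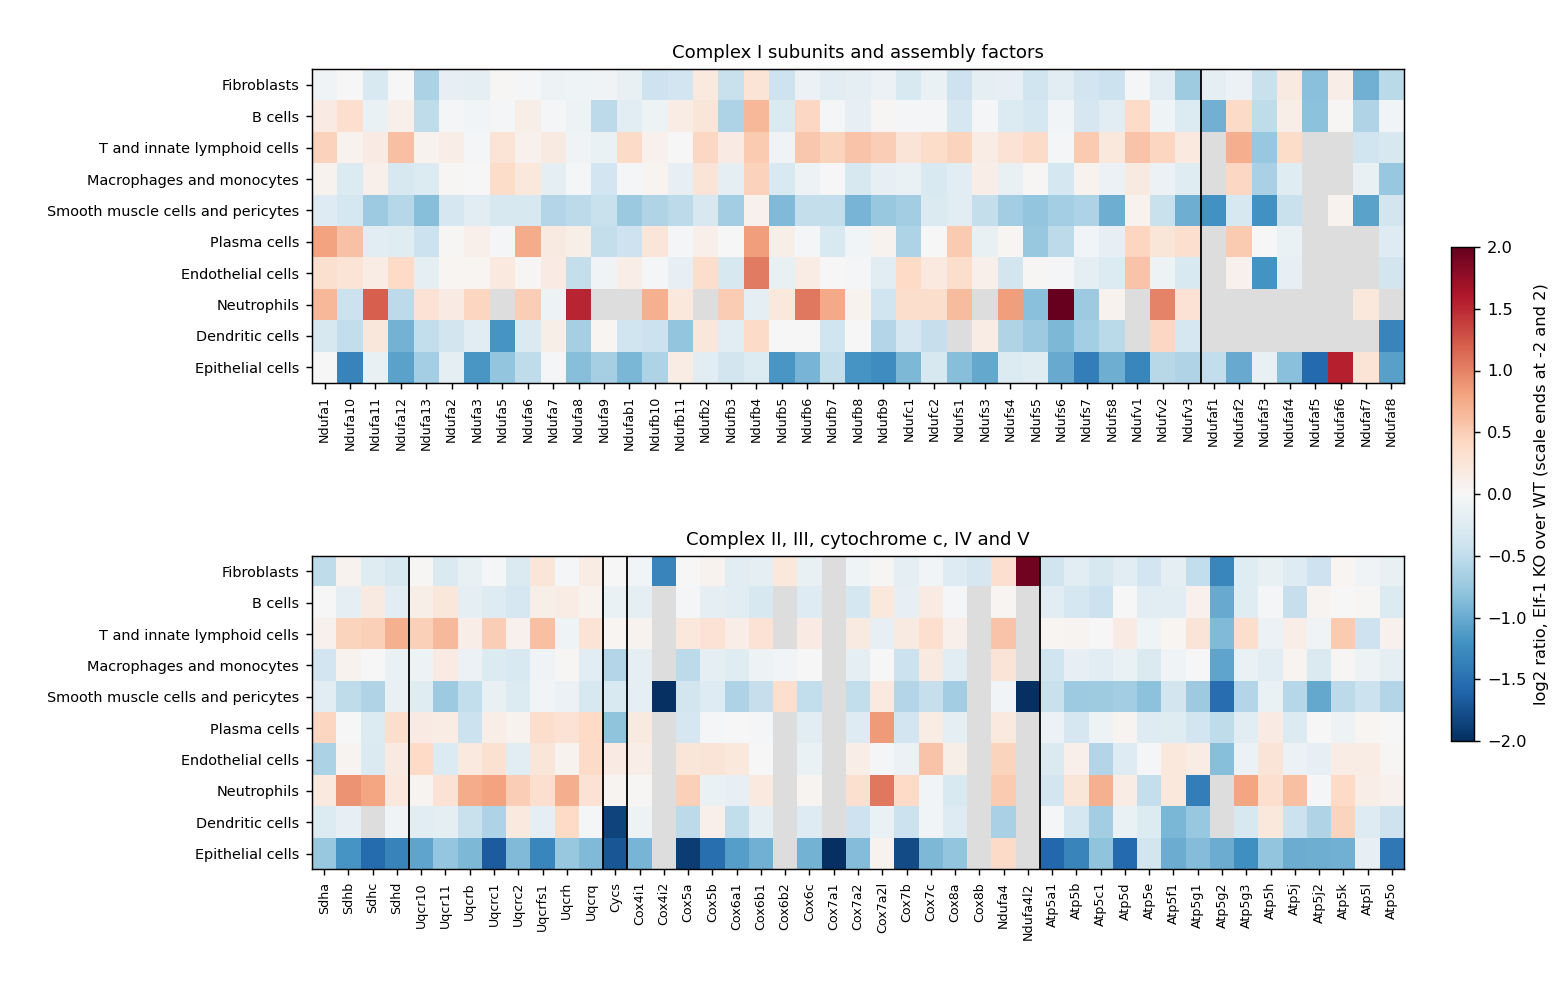
log2 ratio of CPM, library labelled Elf-1 KO over library labelled WT, for all but 1 of the measured subunit and Ndufaf genes (columns, grouped by complex, black lines between groups) in the 10 compared classes (rows). Red is higher and blue lower in the library labelled Elf-1 KO, grey has fewer than 50 UMIs, and the scale ends at -2 and 2; the Atp5g2 column is blue in fibroblasts (-1.30) and in smooth muscle cells and pericytes (-1.52).

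The complexes differed by unequal amounts. The ratio of complex V was below that of complex III in each of the 10 compared classes, and scaling a library by 1 factor leaves that order as it is. Complex V had the lowest ratio of the 5 complexes in 6 of the 10 classes. The lowest was complex II in endothelial and in epithelial cells, complex IV in neutrophils and, by a small margin, complex I in dendritic cells. In smooth muscle cells and pericytes complex V had 4280 CPM in the library labelled Elf-1 KO against 6542 CPM in WT, a ratio of 0.654, and complex III had 3126 CPM (Elf-1 KO) against 3936 CPM (WT), a ratio of 0.794. In plasma cells complex V had a ratio of 0.905 and complex III a ratio of 1.15. The ratio of complex III divided by that of complex V ran over the classes between 1.03 in epithelial cells and 1.27 in plasma cells, and between 1.05 and 1.36 over the 17 clusters with at least 50 cells in each library. All of these values come from the same pair of libraries, so they are not independent of each other.

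The mitochondrially encoded subunits, which share the complexes with the members, differed between the libraries in another way. Macrophages and monocytes had 13993 CPM of mitochondrially encoded mRNA in the library labelled Elf-1 KO against 9985 CPM in WT, a ratio of 1.40, beside 0.920 for the nuclear members. Smooth muscle cells and pericytes had 31018 CPM (Elf-1 KO) against 26552 CPM (WT), a ratio of 1.17, beside 0.742 for the members. In T and innate lymphoid cells the order was turned round, with a ratio of 0.932 beside 1.13. The ratio of the mitochondrially encoded genes exceeded that of the members in 9 of the 10 classes and in 13 of the 17 clusters. The other 4 were 3 T cell clusters and cluster 26, which holds most WT B cells and had a log2 difference of -0.09.

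**Figure D3:**
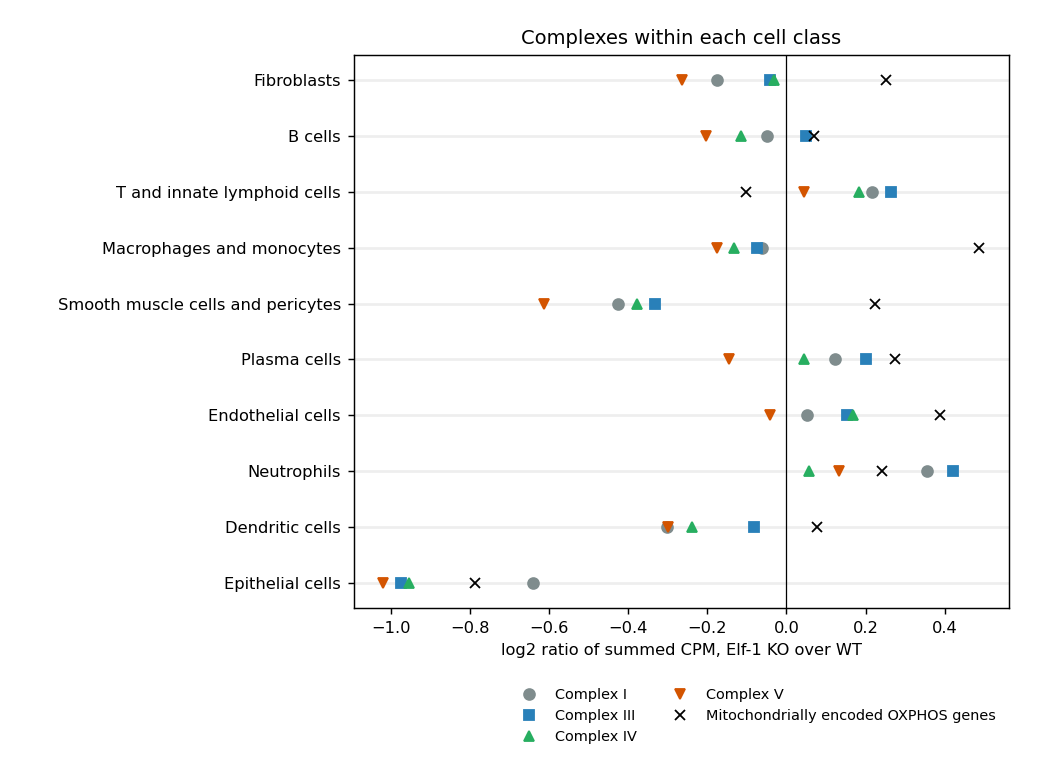
log2 ratio of summed CPM (horizontal axis, library labelled Elf-1 KO over library labelled WT) for complexes I, III, IV and V and for the mitochondrially encoded subunits, in the 10 compared classes. The orange triangles (complex V) lie left of the blue squares (complex III) in every class, by 0.05 in epithelial cells up to 0.35 in plasma cells on the log2 scale.

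Outside epithelial cells, the largest differences of measured members were in 2 restricted forms of complex IV subunits. Ndufa4l2 (chr10:127514967-127517154, plus strand, GRCm38), a relative of Ndufa4 that is induced in low oxygen and marks pericytes, had 29 UMIs (8.17 CPM) in smooth muscle cells and pericytes labelled Elf-1 KO and 110 UMIs (98.3 CPM) in those labelled WT, a ratio of 0.083 (0.053 to 0.126). Cox4i2 (chr2:152754173-152765037, plus strand), the low-oxygen form of subunit 4, had 23 UMIs (6.48 CPM) in the library labelled Elf-1 KO against 83 UMIs (74.2 CPM) in WT, a ratio of 0.087 (0.053 to 0.140). Cluster 1, with 136 cells labelled Elf-1 KO and 65 labelled WT, held 26 of these Ndufa4l2 UMIs in the library labelled Elf-1 KO and 109 in WT, and 16 Cox4i2 UMIs in the library labelled Elf-1 KO and 79 in WT. In cluster 1 alone Ndufa4l2 had 70.6 CPM (46.1 to 103) in the library labelled Elf-1 KO and 552 CPM (454 to 666) in WT, 7.83-fold lower, and Cox4i2 had 43.4 CPM (24.8 to 70.5) in the library labelled Elf-1 KO against 400 CPM (317 to 499) in WT, 9.22-fold lower. Seen as paralog pairs in that cluster, Ndufa4l2 made up 5.31% of Ndufa4 and Ndufa4l2 UMIs in the library labelled Elf-1 KO against 36.3% in WT, and Cox4i2 made up 1.81% of the Cox4i1 and Cox4i2 UMIs in the library labelled Elf-1 KO against 15.9% in WT. After each cell was thinned to 1000 UMIs, 3.76% of cluster 1 cells labelled Elf-1 KO had a Ndufa4l2 UMI against 33.3% of those labelled WT (unthinned 8.82% of Elf-1 KO cells against 40.0% of WT cells). Smooth muscle cluster 15 had 0 Ndufa4l2 UMIs in 169 cells labelled Elf-1 KO and 0 in 294 labelled WT, which allows levels of up to 7.77 CPM (Elf-1 KO) and 4.58 CPM (WT) by exact Poisson limits.

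Cluster 1 differed between the libraries in other genes as well, read from a short list chosen after the values were seen. Among mural cell markers Notch3 had 43.4 CPM in the library labelled Elf-1 KO against 279 CPM in WT and Rgs5 had 3067 CPM (Elf-1 KO) against 6047 CPM (WT), while the potassium channel gene Kcnj8 had 1406 CPM (Elf-1 KO) against 517 CPM (WT). The fibroblast gene Dcn had 5638 CPM (Elf-1 KO) against 1323 CPM (WT). How much of the Ndufa4l2 and Cox4i2 difference comes with this make-up of the cluster was not tested. Exons of Ndufa4l2 overlap Shmt2 on the opposite strand; Shmt2 had 11 UMIs (29.9 CPM) in Elf-1 KO cells of cluster 1 against 5 UMIs (25.3 CPM) in WT cells.

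In fibroblasts the direction of Ndufa4l2 was the opposite, with 197 UMIs (12.5 CPM) in the library labelled Elf-1 KO against 18 UMIs (3.29 CPM) in WT, a ratio of 3.79 (2.34 to 6.53). Cluster 10, led by Col3a1, Col1a1 and Col1a2, held 179 of these UMIs in the library labelled Elf-1 KO and 8 in WT, with 49.3 CPM in the library labelled Elf-1 KO against 11.2 CPM in WT, a ratio of 4.42 (2.20 to 10.4). Cox4i2 had 2.34 CPM in fibroblasts labelled Elf-1 KO against 5.85 CPM in WT, so the 2 low-oxygen forms lay on opposite sides of the WT level there. The 15 genes of the hypoxia list summed to 1073 CPM in fibroblasts labelled Elf-1 KO against 735 CPM in WT, a ratio of 1.46. That sum is over the whole class, whose clusters differ between the libraries as given above. In cluster 10, Vegfa of the same short list had 61.7 CPM (Elf-1 KO) against 47.4 CPM (WT). Egln3 had 17 UMIs (4.69 CPM) in Elf-1 KO against 5 UMIs (6.98 CPM) in WT there. Whether these genes and Ndufa4l2 go together was not tested.

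**Figure D4:**
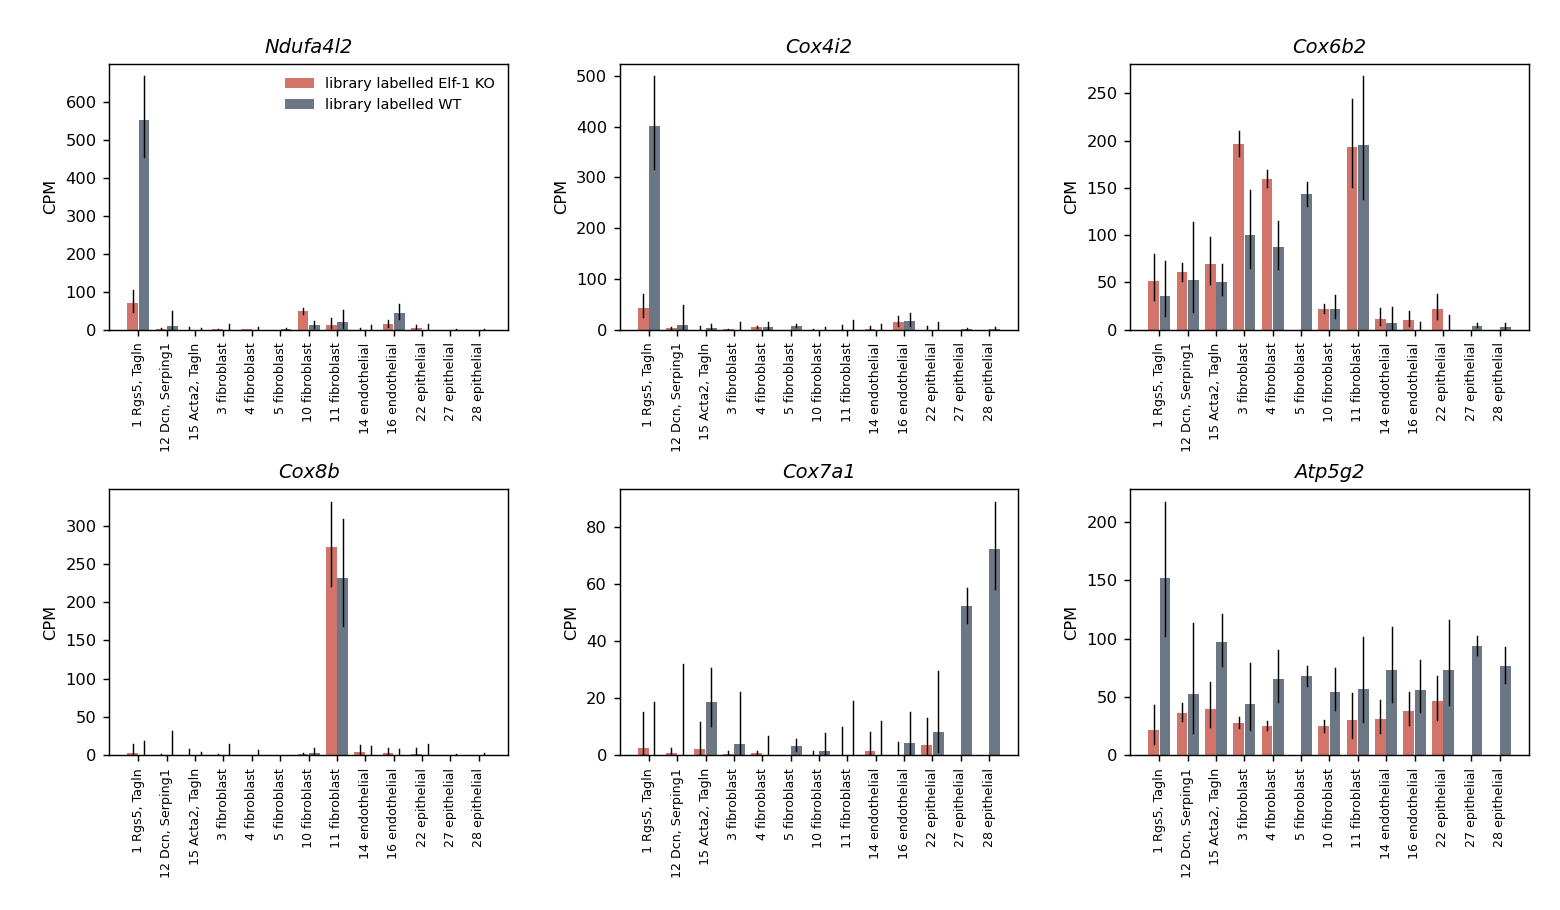
Level (CPM, vertical axis from 0) of 6 members in stromal, endothelial and epithelial clusters, red for the library labelled Elf-1 KO (left bar) and grey for the library labelled WT (right bar). Lines are 95% counting intervals and bars with fewer than 20 cells are not drawn; Ndufa4l2 stands at 70.6 CPM (Elf-1 KO) and 552 CPM (WT) in cluster 1.

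Other restricted forms were highest in particular populations. Cox6b2 was highest in fibroblasts, with 140 CPM in fibroblasts labelled Elf-1 KO and 122 CPM in those labelled WT, against 1.79 CPM in B cells labelled Elf-1 KO and 2.99 CPM in those labelled WT. It made up 28.1% of the Cox6b1 and Cox6b2 UMIs in fibroblast cluster 4 of the library labelled Elf-1 KO against 15.6% in WT, and cluster 10 was low, at 21.8 CPM (Elf-1 KO) against 22.3 CPM (WT). Cox8b, the heart and skeletal muscle form of subunit 8, was found mostly in fibroblast cluster 11, led by Lum, Hp and Fbln1, with 100 UMIs (272 CPM, 221 to 331) in 82 cells labelled Elf-1 KO and 45 UMIs (231 CPM, 169 to 309) in 63 cells labelled WT. Those were 100 of its 120 UMIs in the library labelled Elf-1 KO and 45 of 52 in the library labelled WT. In that cluster Cox8b was 30.6% (25.6% to 35.9%) of Cox8a and Cox8b UMIs in the library labelled Elf-1 KO and 23.0% (17.3% to 29.5%) in the library labelled WT, intervals that overlap.

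Cox7a1, known from heart, muscle and brown fat, was found mainly in WT epithelial cells: 2 UMIs (3.47 CPM) in the 84 cells labelled Elf-1 KO against 377 UMIs (54.4 CPM) in the 1057 labelled WT. Its level in the WT goblet cell cluster was 72.5 CPM and in WT cluster 27 52.2 CPM, populations nearly missing from the library labelled Elf-1 KO. Cox6a2, another muscle form, was close to the counting floor everywhere and highest in dendritic cells, with 6 UMIs (13.3 CPM) in the library labelled Elf-1 KO and 7 UMIs (15.1 CPM) in the library labelled WT.

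Atp5g2 (chr15:102662864-102672352, minus strand, GRCm38) was the one member past 2-fold in the same direction in 3 or more classes, with counts scaled to the class total. It encodes the c subunit that forms the rotor ring of ATP synthase, as do Atp5g1 and Atp5g3, and the mature proteins of the 3 genes are the same. Fibroblasts had 411 UMIs (26.0 CPM) of Atp5g2 in the library labelled Elf-1 KO against 351 UMIs (64.2 CPM) in WT, a ratio of 0.406 (0.351 to 0.469). The ratio was 0.348 (0.268 to 0.453) in smooth muscle cells and pericytes, 0.479 (0.349 to 0.658) in macrophages and monocytes and 0.496 (0.390 to 0.623) in B cells. T and innate lymphoid cells had 50.5 CPM in the library labelled Elf-1 KO against 93.7 CPM in WT, a ratio of 0.539 (0.421 to 0.689). Under TMM scaling the log2 ratio in fibroblasts was -0.98 in place of -1.30. No member stayed past 2-fold in B cells or in macrophages and monocytes under that scaling. Passing 2-fold in 3 or more classes thus depends on the scaling. Within B cells the Atp5g2 ratio was 0.365 in cluster 9 and 0.738 in cluster 26, the second on 14 UMIs labelled Elf-1 KO, and in the 11 clusters where it was measured it lay below the WT level in 11, with the interval below 1 in 8.

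Atp5g1 lay below the WT level in 7 of 10 classes, with a median ratio of 0.737. Its ratio was 0.605 (0.531 to 0.691) in smooth muscle cells and pericytes, 0.710 (0.664 to 0.760) in fibroblasts, 0.995 (0.870 to 1.14) in macrophages and monocytes and 1.06 (0.952 to 1.19) in B cells. Atp5g3 had ratios of 0.666 (0.587 to 0.758) in smooth muscle cells and pericytes, 0.844 (0.788 to 0.904) in fibroblasts, 0.914 (0.804 to 1.04) in macrophages and monocytes and 0.844 (0.740 to 0.962) in B cells. In these 4 classes both ratios were thus nearer 1 than that of Atp5g2. Of the UMIs of the 3 genes, Atp5g2 made up 10.6% (8.55% to 12.9%) in B cells labelled Elf-1 KO against 18.7% (17.3% to 20.1%) in those labelled WT, and 6.96% (6.32% to 7.64%) in fibroblasts labelled Elf-1 KO against 12.5% (11.3% to 13.8%) in those labelled WT. In epithelial cells its share was 5.42% (3.57% to 7.84%) in the library labelled Elf-1 KO against 5.34% (4.94% to 5.77%) in WT, so the 2 shares did not differ beyond counting error there, and in plasma cells it was 7.38% (Elf-1 KO) against 8.27% (WT). Reads of such close paralogs may be split between them by the counting, which adds uncertainty to these shares.

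A few members were higher. Ndufb4, an accessory subunit of complex I, had 267 UMIs (182 CPM) in endothelial cells labelled Elf-1 KO against 69 UMIs (88.0 CPM) in WT, a ratio of 2.06 (1.58 to 2.73). Its ratio was 1.78 (1.37 to 2.32) in plasma cells, 1.59 (1.31 to 1.91) in B cells (1.41 in cluster 9 and 1.44 in cluster 26) and 1.44 (1.17 to 1.78) in T and innate lymphoid cells. In smooth muscle cells and pericytes it was 1.06 (0.873 to 1.29), an interval that includes 1. Ndufa4, now counted as a complex IV subunit, had 819 CPM in T and innate lymphoid cells labelled Elf-1 KO against 554 CPM in WT, a ratio of 1.48 (1.37 to 1.60), and 978 CPM (Elf-1 KO) against 778 CPM (WT) in fibroblasts, a ratio of 1.26 (1.22 to 1.30). Dendritic cells lay on the other side, with 389 CPM of Ndufa4 in the library labelled Elf-1 KO against 608 CPM in WT.

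The ends of the range in the other classes held subunits and assembly factors alike. In T and innate lymphoid cells Ndufaf2, a complex I assembly factor, had 55.2 CPM in the library labelled Elf-1 KO against 33.4 CPM in WT, a ratio of 1.65 (1.21 to 2.28), and Uqcr11, a small complex III subunit, had 314 CPM (Elf-1 KO) against 201 CPM (WT), a ratio of 1.57. Ndufaf3, another assembly factor, had 29.2 CPM (Elf-1 KO) against 49.5 CPM (WT) there, a ratio of 0.590 (0.421 to 0.821). In plasma cells Cox7a2l, which takes part in joining complexes III and IV into supercomplexes, had 76.8 CPM in the library labelled Elf-1 KO against 42.4 CPM in WT, a ratio of 1.81 (1.51 to 2.16). Ndufs5, a complex I subunit, had 26.6 CPM (Elf-1 KO) against 45.1 CPM (WT) in plasma cells, a ratio of 0.589. In epithelial cells the complex IV subunit genes Cox5a and Cox7b had ratios of 0.269 (373 CPM in Elf-1 KO against 1389 CPM in WT) and 0.290 (203 CPM in Elf-1 KO against 701 CPM in WT), while the assembly factor Ndufaf6 had 43.4 CPM (Elf-1 KO) against 14.7 CPM (WT), a ratio of 2.95 (1.83 to 4.61). These epithelial values set different epithelial clusters against each other.

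Of the 99 members, exons of 26 overlap those of another protein-coding gene, 4 of them on the same strand. The same-strand genes of those 4 had 0 UMIs in both libraries. The sources used here do not say whether reads were counted by strand, so reads of such a pair cannot be told apart. Ndufs6, an iron-sulfur region subunit of complex I, overlaps Mrpl36 on the opposite strand and had 145 UMIs (55.3 CPM) in neutrophils labelled Elf-1 KO against 3 UMIs (12.6 CPM) in WT, a ratio of 4.39 (1.47 to 21.6). Over all kept cells Mrpl36 had 2678 UMIs in the library labelled Elf-1 KO and 3162 in the library labelled WT. Its level in neutrophils alone was not read.

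Cycs, the mobile electron carrier that also takes part in apoptosis, differed by class. Dendritic cells had 57 UMIs (126 CPM) in the library labelled Elf-1 KO against 211 UMIs (455 CPM) in WT, a ratio of 0.277 (0.203 to 0.373). The make-up of dendritic cells differed between the libraries, as given above, and its part in this ratio was not tested. Plasma cells had 55.1 CPM (Elf-1 KO) against 96.1 CPM (WT), a ratio of 0.573 (0.488 to 0.672), and macrophages and monocytes 165 CPM (Elf-1 KO) against 247 CPM (WT), a ratio of 0.668 (0.591 to 0.756). Fibroblasts had 145 CPM (Elf-1 KO) against 144 CPM (WT), a ratio of 1.00 (0.925 to 1.09), and T and innate lymphoid cells 248 CPM (Elf-1 KO) against 240 CPM (WT). Epithelial cells, where the libraries hold different epithelial clusters, had 257 CPM (Elf-1 KO) against 842 CPM (WT), a ratio of 0.305 (0.258 to 0.360). The intervals lay below 1 in these dendritic, plasma, macrophage and epithelial classes and, at a ratio of 0.807, in smooth muscle cells and pericytes; in the other 5 classes they include 1.

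The complex II genes, which also serve the TCA cycle, summed to 575 CPM in T and innate lymphoid cells labelled Elf-1 KO against 427 CPM in WT, a ratio of 1.35 (1.23 to 1.48). Among them Sdhd, a membrane anchor, had 151 CPM (Elf-1 KO) against 92.1 CPM (WT) there, and Sdha, the flavoprotein that oxidises succinate, had 113 CPM (Elf-1 KO) against 107 CPM (WT). In smooth muscle cells and pericytes Sdhc, the other anchor, had 83.4 CPM (Elf-1 KO) against 126 CPM (WT), Sdhb, the iron-sulfur subunit, 162 CPM (Elf-1 KO) against 231 CPM (WT), and Sdha 86.8 CPM (Elf-1 KO) against 100.1 CPM (WT). The 4 genes together had a ratio of 0.771 (0.706 to 0.844) in that class, close to the 0.742 of all members. Both ratios set mostly different clusters of that class against each other.

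Promoter sequences are shown for 3 members that carry an ETS-type match, since Elf-1 belongs to that family, for Atp5g2, below the WT level in 8 of the 8 classes where it was measured, and for Ndufb4, above it in 8 of 10. RefSeq windows on GRCm38.p6, 250 bases before to 50 after a gene's start, were matched by symbol for 74 members. The letters CCGGAAG, on either strand, were in 18 of 79 member windows (22.8%) and in 8.86% of all 32851 windows. The letters TGCGCATGC of the NRF1 type were in 7.59% of member windows and 1.52% of all, and AAGATGGCG of the YY1 type in 10.1% and 1.40%. Windows were not matched on base composition, and a match is a description of letters, not a bound site. Capitals mark any of the 3 motifs on either strand, and each window is written 5′ to 3′ on the gene's strand.
Atp5j: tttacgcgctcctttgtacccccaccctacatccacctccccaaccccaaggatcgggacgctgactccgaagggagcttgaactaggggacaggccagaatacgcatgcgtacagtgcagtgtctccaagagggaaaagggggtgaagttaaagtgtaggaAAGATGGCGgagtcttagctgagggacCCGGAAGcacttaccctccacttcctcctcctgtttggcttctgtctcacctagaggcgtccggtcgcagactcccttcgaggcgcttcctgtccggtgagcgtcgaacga
Ndufaf8: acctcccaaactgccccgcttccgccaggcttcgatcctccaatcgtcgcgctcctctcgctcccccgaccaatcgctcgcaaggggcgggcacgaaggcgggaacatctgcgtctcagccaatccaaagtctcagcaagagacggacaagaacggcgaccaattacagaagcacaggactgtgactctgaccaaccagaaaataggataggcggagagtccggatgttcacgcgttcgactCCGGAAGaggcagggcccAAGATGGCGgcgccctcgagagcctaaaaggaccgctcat
Uqcrh: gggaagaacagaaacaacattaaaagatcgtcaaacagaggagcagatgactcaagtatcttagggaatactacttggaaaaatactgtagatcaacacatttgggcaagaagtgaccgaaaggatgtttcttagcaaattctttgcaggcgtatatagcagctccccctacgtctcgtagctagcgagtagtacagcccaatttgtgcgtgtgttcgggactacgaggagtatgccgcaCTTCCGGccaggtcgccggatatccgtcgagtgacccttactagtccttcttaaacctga
Atp5g2: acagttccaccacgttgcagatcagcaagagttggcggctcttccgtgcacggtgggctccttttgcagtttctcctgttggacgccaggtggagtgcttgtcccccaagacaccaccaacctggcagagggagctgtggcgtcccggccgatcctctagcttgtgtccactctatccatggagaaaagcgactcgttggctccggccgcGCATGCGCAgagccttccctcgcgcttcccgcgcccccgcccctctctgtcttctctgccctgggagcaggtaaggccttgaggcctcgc
Ndufb4: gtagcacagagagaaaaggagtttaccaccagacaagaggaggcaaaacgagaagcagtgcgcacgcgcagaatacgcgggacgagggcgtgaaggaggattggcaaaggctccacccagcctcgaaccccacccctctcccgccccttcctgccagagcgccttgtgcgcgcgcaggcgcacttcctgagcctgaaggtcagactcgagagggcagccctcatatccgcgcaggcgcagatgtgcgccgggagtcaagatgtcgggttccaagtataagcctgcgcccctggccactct

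The windows shown for Atp5j (chr16:84834927-84835226, minus strand) and Ndufaf8 (chr11:120098684-120098983, plus strand) each hold the ETS and YY1 letters, and that of Uqcrh (chr4:116075021-116075320, minus strand) the ETS letters. Where a gene had several windows, the one with the most matches is shown. Atp5j has another window (chr16:84835576-84835875), at the annotated start of the gene, that holds none of the 3 motifs. The window of Atp5g2 (chr15:102670998-102671297, minus strand) holds the NRF1 letters. It lies inside the gene as annotated above, whose start on the minus strand is at 102672352, so the letters are not at that start. The window of Ndufb4 (chr16:37654319-37654618, minus strand) holds none of the 3. Members with and without the ETS letters lay close together in their medians: in smooth muscle cells and pericytes the median log2 ratio was -0.49 over 18 members with them and -0.53 over 53 without, and in fibroblasts -0.20 over 18 and -0.17 over 55. In dendritic cells the medians were -0.18 over 17 members with the letters and -0.38 over 46 without. These medians describe the members and carry no test.

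Genes that build or feed the complexes were read from lists for comparison. The values of smooth muscle cells and pericytes given here set mostly different clusters against each other, cluster 12 (Elf-1 KO) against cluster 15 (WT). In smooth muscle cells and pericytes 14 of 18 TCA cycle genes lay below the WT level, with a median log2 ratio of -0.35, from Fh1 (fumarase) at a ratio of 0.420 to Dlst at 1.17. Mitochondrial ribosomal protein genes had a median of -0.39 over 77 measured there, and assembly factors of complexes II to V -0.38 over 27, beside -0.49 for the members and -0.16 for all genes. In epithelial cells, where the libraries hold different epithelial clusters, the 18 TCA cycle genes had a median of -1.07, beside -0.89 for the members. In T and innate lymphoid cells mitochondrial ribosomal protein genes had a median of 0.20 over 76, beside 0.17 for the members and 0.09 for all genes. Mitochondrial import genes had a median of -0.35 over 18 in smooth muscle cells and pericytes and 0.32 over 18 in T and innate lymphoid cells. Regulators of mitochondrial biogenesis, the factors that act on such genes, had a median of 0.16 over 15 in smooth muscle cells and pericytes, on the other side of 0 from the members, from Creb1 at a ratio of 0.553 to Gabpb1, an ETS partner subunit, at 1.84. Complex I assembly factors outside the Ndufaf series had a median of -0.42 over 9 in fibroblasts, and cytosolic ribosomal protein genes -0.07 over 86 in smooth muscle cells and pericytes. No test was made on these lists.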

How the data were processed

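Single-cell RNA was measured with the GEXSCOPE platform in 2 pooled libraries. The authors deposited a matrix of whole-number UMI counts per gene and barcode for each library. Per the submitters' processing notes, cutadapt 1.17, STAR 2.6.1a, featureCounts 2.0.1 and GRCm38 were used; the sources used here do not say whether counting used strand. Barcodes with fewer than 200 genes or over 25% mitochondrial UMIs were left out. The doublet caller marked 260 barcodes labelled Elf-1 KO and 2 labelled WT, too few in the second, where the 406 barcodes with the highest scores (top 5%) were removed. Cells of both libraries were clustered together (scanpy 1.11.5, 2000 variable genes, 30 principal components, 15 neighbours, Leiden resolution 1.0). Counts were summed per class and library and divided by all UMIs there (CPM). A class was compared where both libraries held 50 or more of its cells.

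Intervals are exact 95% Poisson intervals for levels and conditional binomial intervals for ratios (scipy 1.17.1), and cover counting error only. Kept cells held 37261926 UMIs labelled Elf-1 KO and 29823446 labelled WT. TMM factors came from edgeR 4.0.16, and no model was fitted. The ratio calculation was tested on simulated data. The named genes were restricted paralogs, Cycs, the Sdh genes, the 3 highest and 3 lowest ratios per class and members past 2-fold in 3 or more classes. Ndufb4 and Ndufs6 were described further after their values were seen. The members and lists were chosen with earlier results of these data known, and the rule for naming clusters and the mural gene list after the data were seen. The alternatives were other scalings, filters, clusterings, thinning to 1000 UMIs and doublets kept. One member is not reported here by name.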

Additional observations from a re-analysis of the deposited data

Results flagged for a closer look

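Ndufa4l2 lay on opposite sides of the WT level in 2 classes. Its log2 ratio, library labelled Elf-1 KO over library labelled WT, was 1.92 in fibroblasts and -3.59 in smooth muscle cells and pericytes. Ndufs6 did likewise, with a log2 ratio of 2.14 in neutrophils, resting on 3 WT UMIs, and -1.01 in epithelial cells, where the libraries hold different epithelial clusters. With 1 library a group the difference was not tested.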

How the results depend on the processing

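No paired analysis was possible because each group has 1 library. The values are log2 ratios of the summed level, library labelled Elf-1 KO over library labelled WT. The direction reversed in fibroblasts under TMM factors (0.19), in B cells as the mean over clusters of at least 50 cells in each library (0.083), where cluster 9 alone gave -0.02 and cluster 26 0.18, and in plasma cells at Leiden resolution 2.0 (-0.00434), with doublets kept (-0.00795) and as a mean over cells (-0.11). TMM gave -0.056 in B cells, 0.089 in T and innate lymphoid cells, -0.016 in macrophages and monocytes, -0.26 in smooth muscle cells and pericytes, 0.15 in endothelial cells and 0.31 in neutrophils. A total without mitochondrial, ribosomal, haemoglobin and immunoglobulin genes gave -0.10 in fibroblasts, -0.013 in B cells, -0.41 in smooth muscle cells and pericytes, 0.13 in plasma cells and -0.99 in epithelial cells. Thinning gave -0.16 in fibroblasts, -0.065 in B cells, 0.024 in T and innate lymphoid cells, 0.071 in plasma cells, 0.027 in endothelial cells, -0.22 in dendritic cells and -0.56 in epithelial cells. The mean over cells gave -0.17 in fibroblasts, 0.018 in T and innate lymphoid cells, -0.46 in smooth muscle cells and pericytes, 0.030 in endothelial cells, -0.32 in dendritic cells and -0.55 in epithelial cells. Shared clusters gave -0.041 in fibroblasts, 0.10 in T and innate lymphoid cells and -0.24 in smooth muscle cells and pericytes, and no value in epithelial cells, where no cluster holds 50 cells in each library. Resolution 2.0 gave -0.24 in B cells and -0.40 in smooth muscle cells and pericytes; doublets kept gave 0.35 in neutrophils and -0.32 in dendritic cells; a limit of 10% mitochondrial UMIs gave -0.98 in epithelial cells. The cause was not tested.

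The count of members past 2-fold became 1 in fibroblasts, 0 in B cells and 0 in macrophages and monocytes under TMM. With at least 1 UMI per gene it was 6 in fibroblasts, 8 in B cells, 6 in T and innate lymphoid cells, 7 in macrophages and monocytes, 15 in smooth muscle cells and pericytes, 6 in plasma cells, 10 in endothelial cells, 22 in neutrophils and 7 in dendritic cells. With at least 200 UMIs it was 0 in macrophages and monocytes, 3 in smooth muscle cells and pericytes, 1 in endothelial cells, 2 in neutrophils and 1 in dendritic cells. With doublets kept it was 0 in macrophages and monocytes, 1 in endothelial cells and 16 in neutrophils. Of the values for named members under the alternatives, 921 stayed within counting error, 104 did not and 0 reversed. Members with few UMIs, above all in the 167 WT neutrophils and 84 epithelial cells labelled Elf-1 KO, are limited by depth.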
